A study of Mus musculus with 6 samples.

Results

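Adrenergic and cyclic AMP signalling was described here through 36 genes, chosen by symbol as the receptors, G proteins, adenylyl cyclases, phosphodiesterases, protein kinase A subunits, kinase anchors, desensitisation genes and Epac genes of the heart muscle cell. The choice was made with earlier results of these data known, so counts of members that passed are descriptions. The 36 genes were read out of 48005 gene identifiers in a table of RNA sequencing counts per exon bin. An exon bin is an exon or a piece of one. The hearts came from C57BL/6 mice in 2 groups. The first group was 3 conditional knock-in mice, which carry Txnip with its PPXY motifs replaced by AAXA. The second was 3 mice labelled wild-type with a Txnip flox allele. All 6 hearts carry the label MerCreMer with 4-hydroxytamoxifen treatment, MerCreMer being a Cre recombinase that 4-hydroxytamoxifen switches on, so the wild-type hearts share the Cre and the drug. The sources used here do not give the promoter that drives MerCreMer or the age and sex of the mice. The wild-type hearts are stated to be those of another series and no batch is labelled, so genotype and batch cannot be told apart. Nothing in the labels says how the 3 hearts of a group relate to each other beyond being separate samples.

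In a heart muscle cell, noradrenaline and adrenaline bind beta receptors, whose stimulatory G protein switches on adenylyl cyclase. The cyclic AMP made there frees the catalytic subunits of protein kinase A, which phosphorylate calcium channels and sarcomere proteins and so raise the force and rate of the beat. Phosphodiesterases break cyclic AMP down, anchors (AKAPs) hold the kinase close to its targets, Epac proteins are a second receptor for cyclic AMP, and G protein receptor kinases with beta-arrestins silence the receptor. Alpha-1 receptors act through another G protein and calcium. Txnip is an alpha-arrestin, a relative of the beta-arrestins Arrb1 and Arrb2, and its PPXY motifs are docking sites for ubiquitin ligases.

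The counts summed to 31989883, 33805207 and 34016586 in the knock-in hearts and to 30329004, 30428964 and 30625093 in the wild-type hearts. For Txnip, on chromosome 3, the gene sums were 363, 751 and 670 CPM in knock-in hearts, against 887, 939 and 886 CPM in wild-type hearts; CPM are counts scaled to library size. Its log2 difference, knock-in over wild-type, was -0.60 ± 0.20 (SE, edgeR adjusted p = 0.0698). Over the bins of its last 1000 exonic bases, the log2 difference of Txnip was 4.58 (edgeR adjusted p = 0.00571). That window is only a part of its 3123 exonic bases, and the gene sum was lower in every knock-in heart than in every wild-type heart. Of the markers of heart muscle cells, 0 of 7 tested passed the threshold in gene sums (edgeR), and their summed level was 64400 to 71600 CPM in the knock-in hearts and 54200 to 62700 CPM in the wild-type hearts. Markers of other cells moved in part: 2 of 8 endothelial, 1 of 8 fibroblast, 3 of 8 smooth muscle and pericyte and 1 of 8 macrophage and leukocyte markers fell, and 3 of 6 red cell and platelet markers fell while 1 rose. Over all genes tested in gene sums, 4.09% fell and 6.74% rose. Summed endothelial markers ran from 429 to 597 CPM in knock-in hearts and 524 to 785 CPM in wild-type hearts, and the macrophage and leukocyte sum was 189 to 195 CPM in knock-in and 224 to 256 CPM in wild-type hearts. Smooth muscle and pericyte markers summed to 284 to 511 CPM in knock-in and 505 to 546 CPM in wild-type hearts. Of the 7 adipocyte markers, 0 were tested, 2 (Ucp1 and Lep) were at 0 in every heart, and the sum reached at most 0.294 CPM in knock-in and 0.772 CPM in wild-type hearts. Of the sympathetic neuron markers, Th and Npy were at 0 in every heart, and 0 of 2 tested passed. The atrial list summed to 80.3 to 125 CPM in knock-in and 123 to 229 CPM in wild-type hearts, with 0 of 4 tested past the threshold, and Schwann cell markers had 0 of 3. The part of these cells in the results below was not tested.

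Coverage along the genes differed between the groups and bears on each member. For 34 members with at least 3 bins, the exonic length was cut into 3 equal parts, and counts in the part at the 3′ end were divided by those in the part at the 5′ end. The median log2 ratio over the members was 0.13, -0.19 and 0.29 in the knock-in hearts and 1.06, 0.79 and 0.65 in the wild-type hearts. Every knock-in heart thus lay below every wild-type heart, by 0.76 on average (means 0.08 ± 0.25 and 0.83 ± 0.21, SD, n = 3 each, exact permutation p = 0.1, two-sided, the smallest that 3 against 3 allows). Over 1796 long genes the medians were -0.08, -0.24 and -0.15 in knock-in hearts and 0.70, 0.49 and 0.30 in wild-type hearts. The mean ratio was lower in knock-in hearts for 30 of the 34 members, without overlap between the groups for 19 of them. Bins were placed in these parts whole, by their middle. Among the members without overlap is Pde3a, whose long last bin has its middle in the middle part. Its 3′ part therefore held no bin and 0 counts, so its ratio reads its 5′ part alone. In Gnas the 5′ part held only 0 to 2 counts. Counts near the 5′ end therefore weighed more in the knock-in hearts, and each member is given below both as the sum over all its bins (gene sum) and over the bins whose middle lies in its last 1000 exonic bases (3′ end). The 3′ end was scaled on such bins alone, which takes out the average shift of all genes. It does not take out how far the shift of a single gene departs from that average. Single bins were scaled on all bins and keep the average shift, so the same counts give lower values there.

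**Figure D1:**
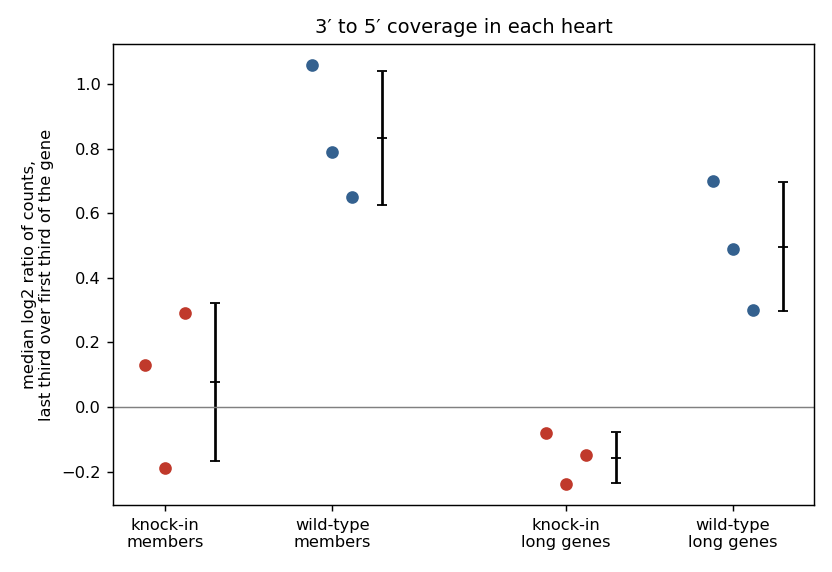
Median log2 ratio of counts in the 3′ over the 5′ part of the exonic length (3 equal parts), 1 point per heart, for 34 members (left pair) and 1796 long genes (right pair), with the mean and SD beside the points. The knock-in hearts lie at -0.19 to 0.29 for the members, all below the wild-type hearts at 0.65 to 1.06.

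In gene sums, 13 of the 35 members tested rose in knock-in hearts and 0 fell (edgeR quasi-likelihood test with Benjamini-Hochberg adjustment over 13066 genes, threshold 0.05). Over all genes tested 10.8% changed, 6.74% upward (881) and 4.09% downward (534). Upper-quartile scaling turned this split to 594 up and 734 down, with 11 members up and 1 down. Members that fell numbered 2 at an unadjusted p under 0.05 (Rapgef3 and Arrb2), 1 with DESeq2 (Rapgef3) and 0 with limma-voom. The 13 were the receptor gene Adra1a, the cyclase genes Adcy1, Adcy5, Adcy6 and Adcy9, the phosphodiesterase genes Pde3a, Pde4d and Pde7a, the kinase genes Prkaca, Prkacb and Prkar2a, and the anchor genes Akap6 and Akap13. In all 13 the lowest knock-in heart lay above the highest wild-type heart. That held for 20 of the 35 members and for 16.7% of all genes tested, and 3 members had every knock-in heart below every wild-type heart, against 14% of all genes. The median log2 difference was 0.32 over the members and 0.00 over all genes. Length went with this. Among the longest of 5 equal classes of genes by exonic length (7290 bases or more), 8 of 14 members rose, where 14.8% of all genes did. In the class below it 4 of 8 members rose, where 8.69% of genes did. In the middle class 0 of 7 members and 6.05% of genes rose, in the next 1 of 6 members and 3.06% of genes, and the shortest class, with 1.11%, held no member.

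At the 3′ end, 2 of 23 members tested rose (Adcy9 and Gnai2) and 0 fell, where 3.34% of 8287 genes changed, 1.57% upward and 1.77% downward. At an unadjusted p under 0.05, 2 members were lower there (Adcy3 and Adcy7), and DESeq2 and limma-voom called 0 lower. Every knock-in heart lay above every wild-type heart in 6 of the 23, and in 11.9% of all genes. Of the 36, Adcy9 alone passed in both fits. The window left 12 members without a bin, since their last bin is too long for its middle to fall there, or because their bins are shared (Pde2a), and Prkar2b held too few counts. With bins counted whole wherever they reach into the last 1000 bases, chosen after seeing the data, all 35 were tested, and Adra1a, Adcy1 and Adcy9 rose, where 1.87% of 11500 genes did. The median log2 difference in the main 3′ window was 0.05 over the members and 0.00 over all genes.

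Single hearts weighed on the number of calls. In gene sums 3 members rose without knock-in heart 2 (0.789% of all genes), 8 without knock-in heart 3 (2.02%), 4 without wild-type heart 1 (0.959%) and 3 without wild-type heart 2 (1.12%). All 13 were kept without knock-in heart 1, where 8.77% of genes rose. They were also kept without wild-type heart 3 (11.6%), where Prkar1a, Grk5 and Rapgef4 rose as well and Arrb2 fell. Adra1a, Adcy1 and Adcy9 passed in each of the 6 fits. For the 3′ end, 3 members rose without knock-in heart 1 (2.01% of genes), 0 without knock-in heart 2 (0.34%), 2 without knock-in heart 3 (1.13%), 0 without wild-type heart 1 (0.237%), 1 without wild-type heart 2 (0.557%) and 3 without wild-type heart 3 (1.93%).

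Other ways of counting and testing moved the calls less in most cases. Rising members in gene sums numbered 13 with DESeq2 (9% of genes), 13 with limma-voom (7.13%), 11 with upper-quartile scaling (4.55%), 13 without a filter on low counts (5.44%), 12 from bins of 50 bases or more (5.94%) and 13 with joined identifiers split (6.55%). Offsets for length and GC content gave 15 (9.36%), with Adra1b, Gnai2 and Prkar1a added and Prkacb lost. The highest bin of each gene gave 8 (3.24%). Of the 13, 6 were among them and Adcy5, Adcy6, Pde4d, Pde7a, Prkaca, Prkacb and Akap13 no longer passed, while Adra1b and Gnai2 were gained. At the 3′ end 4 members rose with DESeq2 (3.26% of genes), 3 with limma-voom (1.67%), 2 with upper-quartile scaling (1.47%), 4 without a filter (1.78%) and 4 with the last 2000 bases (1.91%). With the 3′ to 5′ ratio of each heart as a covariate, 0 members and 4 genes passed (edgeR, 586 genes at an unadjusted p under 0.05). The ratio and the genotype cannot be told apart in that fit, since the groups do not overlap in the ratio.

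**Figure D2:**
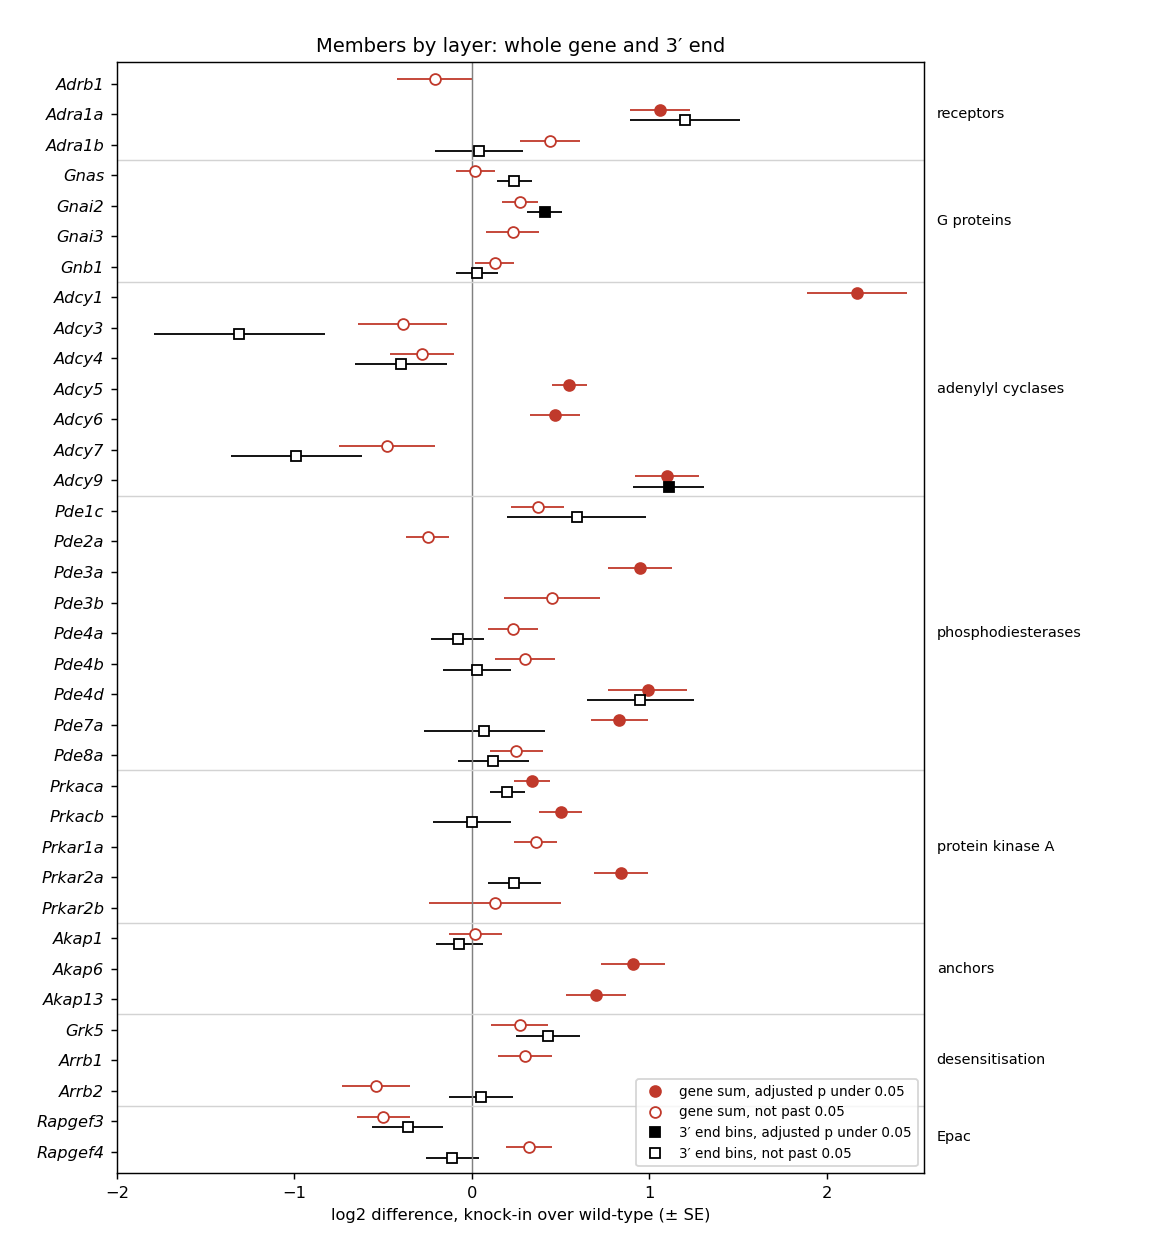
Log2 difference, knock-in over wild-type, with its SE for the 36 members by layer, from gene sums (red circles) and from bins of the last 1000 exonic bases (black squares), filled where the adjusted p is under 0.05. Pde2a is drawn from the fit with joined identifiers split. Adra1a and Adcy9 lie near 1 in both, while Pde7a, Prkacb and Prkar2a lie lower at the 3′ end.

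Of the receptors, Adra1a rose, and neither Adra1b nor Adrb1 passed. Adra1a encodes the alpha-1A receptor and spans 66635251 to 66733462 on the forward strand of chromosome 14 (GRCm38). Its gene sum was 16.8, 22.5 and 20.6 CPM in the knock-in hearts and 7.67, 10.2 and 10.9 CPM in the wild-type hearts. The lowest knock-in heart stood well above the highest wild-type heart. Their spread was 2.89 CPM in knock-in and 1.72 CPM in wild-type hearts (SD, n = 3 each), around a 2.08-fold difference (log2 1.06 ± 0.17, SE, edgeR adjusted p = 0.00611, and 0.0011 to 0.0494 with 1 heart left out). Its 3′ end held 63, 105 and 123 counts in the knock-in hearts and 28, 53 and 60 in the wild-type hearts, again without overlap. That log2 difference, 1.20 ± 0.31, just missed the threshold (edgeR adjusted p = 0.0521, and 0.0122 to 0.183 with 1 heart left out). With bins reaching into the window, or with the last 2000 bases, it was 1.16 and 1.12 and passed (edgeR adjusted p = 0.00984 and 0.0108). All 8 bins of Adra1a tested singly were higher in knock-in hearts, 5 of them past the threshold.

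Adra1b, the alpha-1B receptor gene, had the most counts per exonic base among the receptors. It had 16.6, 12.7 and 12.6 CPM in the knock-in hearts and 9.09, 10.2 and 11.5 CPM in the wild-type hearts. The groups did not overlap, but the log2 difference of 0.44 ± 0.17 did not pass (edgeR adjusted p = 0.109). Adra1b differed along the gene. Its highest bin, 1142 bases at its 5′ side, held 343, 288 and 283 counts in knock-in and 157, 180 and 195 in wild-type hearts. Scaled on the highest bins of all genes, this bin rose by log2 0.86 (edgeR adjusted p = 0.00626). Scaled on all bins, it rose by log2 0.59 (edgeR adjusted p = 0.0197). The last bin of Adra1b held 50, 58 and 62 counts in knock-in and 49, 56 and 80 in wild-type hearts. Scaled on all bins, its log2 difference was -0.32 (edgeR adjusted p = 0.32). The same counts make up the 3′ end of Adra1b, where the log2 difference was 0.04 ± 0.25 (SE, edgeR adjusted p = 0.952). Adrb1 encodes the beta-1 receptor, the main beta receptor of heart muscle. It is counted in a single bin of 2491 bases, so its counts do not depend on how reads spread over bins. Its log2 difference still depends on the scaling, at -0.35 on all bins and 0.03 with length and GC offsets (edgeR adjusted p = 0.181 and 0.947). Its level was 5.45, 4.29 and 5.18 CPM in the knock-in hearts and 5.01, 4.93 and 7.36 CPM in the wild-type hearts, which overlap (log2 -0.21 ± 0.21, SE, edgeR adjusted p = 0.546).

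No G protein gene passed in gene sums. Gnas, the stimulatory alpha subunit gene, had the highest level per length of all members, 121 CPM per kb in knock-in and 119 CPM per kb in wild-type hearts. In single hearts it stood at 1440, 1410 and 1210 CPM in the knock-in group and at 1430, 1350 and 1210 CPM in the wild-type group. These values overlap almost fully (log2 0.02 ± 0.11, SE, edgeR adjusted p = 0.907, and -0.05 with upper-quartile scaling). The identifier also covers the other transcripts of this imprinted locus. Gnai2, an inhibitory alpha subunit gene, had 268, 285 and 255 CPM in knock-in and 229, 233 and 207 CPM in wild-type hearts (log2 0.27 ± 0.10, edgeR adjusted p = 0.108). Gnai2 held at its 3′ end 2489, 2837 and 2516 counts in the knock-in hearts and 2334, 2319 and 2018 in the wild-type hearts, and it rose there 1.33-fold (log2 0.41 ± 0.10, SE, edgeR adjusted p = 0.0401). That call held only without knock-in heart 1 or 3 (edgeR adjusted p 0.0328 to 0.2 over the 6 fits), and none of its 13 tested bins passed. Gnai3 and the beta subunit gene Gnb1 had log2 differences of 0.23 and 0.13 (edgeR adjusted p = 0.346 and 0.473).

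The adenylyl cyclases split: 4 of 7 rose and the other 3 had negative differences that did not pass. Adcy5 and Adcy6, the calcium-inhibited cyclases known as the main forms of heart muscle, had the highest levels per length, 11.3 and 23.2 CPM per kb in knock-in hearts and 7.70 and 16.7 CPM per kb in wild-type hearts. Adcy5 had 77.1, 82.7 and 77.6 CPM in the knock-in hearts and 51.6, 55.3 and 55.0 CPM in the wild-type hearts. The gap between the groups was several times the spread within either (1.47-fold, log2 0.55 ± 0.10, SE, edgeR adjusted p = 0.00963, and 0.00579 to 0.0705 with 1 heart left out, failing without knock-in heart 2 or wild-type heart 1 or 2). Adcy6 had 118, 161 and 140 CPM in knock-in hearts and 86.4, 106 and 109 CPM in wild-type hearts. The lowest knock-in heart lay only a little above the highest wild-type heart, and the 1.39-fold difference just passed (log2 0.47 ± 0.14, SE, edgeR adjusted p = 0.0425, and 0.0116 to 0.214 with 1 heart left out). Adcy6 passed only without knock-in heart 1 or wild-type heart 3, and not with upper-quartile scaling. Neither gene has a bin in the 3′ window; with bins reaching into it both had a log2 difference of 0.25 (edgeR adjusted p = 0.319 for Adcy5 and 0.247 for Adcy6).

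Adcy9 encodes a cyclase that forskolin stimulates only weakly and that anchors tether to potassium channels. The gene spans 4287529 to 4420498 on the reverse strand of chromosome 16 (GRCm38). Its gene sum was 13.4, 15.8 and 15.5 CPM in the knock-in hearts and 5.43, 7.13 and 8.23 CPM in the wild-type hearts. The groups were far apart (means 14.9 ± 1.30 CPM in knock-in and 6.93 ± 1.41 CPM in wild-type hearts, SD, n = 3 each), a 2.15-fold difference (log2 1.10 ± 0.18, SE, edgeR adjusted p = 0.00599, and 0.00117 to 0.0446 with 1 heart left out). Adcy9 held at its 3′ end 131, 163 and 166 counts in knock-in hearts and 65, 79 and 95 in wild-type hearts. There the difference was as large (log2 1.11 ± 0.20, SE, edgeR adjusted p = 0.0109, and 0.00316 to 0.0579 with 1 heart left out, failing without knock-in heart 2 or wild-type heart 1). Of 11 bins tested singly 7 rose, among them the last, of 1545 bases (log2 0.76 ± 0.18, edgeR adjusted p = 0.00896).

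As the member that passed in both fits, Adcy9 is shown with its promoter, 250 bases before to 50 after the annotated start, from RefSeq (GRCm38.p6, reverse strand), chr16:4420449-4420748, 5′ to 3′. Capitals mark the TGACG core of the cyclic AMP response element, the site to which the factor CREB binds.
Adcy9 promoter: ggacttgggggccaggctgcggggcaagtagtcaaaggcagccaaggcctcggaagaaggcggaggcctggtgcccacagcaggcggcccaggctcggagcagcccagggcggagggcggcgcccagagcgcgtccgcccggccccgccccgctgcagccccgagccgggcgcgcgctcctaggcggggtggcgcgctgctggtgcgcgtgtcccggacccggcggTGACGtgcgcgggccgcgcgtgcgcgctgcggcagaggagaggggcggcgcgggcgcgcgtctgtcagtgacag
The window holds TGACG once and neither the full palindromic element TGACGTCA nor the E-box CACGTG. Its GC content is 78.3%. On either strand, and counting TGACG also where it lies within the full element, TGACG occurs in 20.8% of 32851 RefSeq promoter windows of this length, TGACGTCA in 1.79% and CACGTG in 7.15%. Windows were found for 28 of the 36 members, 57 in all. TGACG lies in 19 of these 57 (15 members), CACGTG in 5 (5 members) and TGACGTCA in 2, both of Prkar1a. These are matches of letters only.

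Adcy1, a calcium-stimulated cyclase known mainly from brain, showed the largest difference among the members at one of the lowest levels. It had 3.49, 2.83 and 4.26 CPM in the knock-in hearts and 0.738, 0.896 and 0.707 CPM in the wild-type hearts. Every knock-in heart stood far above every wild-type heart (4.50-fold, log2 2.17 ± 0.28, SE, edgeR adjusted p = 0.00319, and 0.000773 to 0.0184 with 1 heart left out). Its level per length was 0.282 CPM per kb in knock-in and 0.0623 CPM per kb in wild-type hearts, where it was the lowest of all members. Only 2 of its 24 bins had enough counts to test, and both rose. The last, a 5627-base bin of untranslated sequence, held 34, 32 and 56 counts in knock-in hearts and 15, 12 and 13 in wild-type hearts (log2 1.39, edgeR adjusted p = 0.00535).

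Adcy3, Adcy4 and Adcy7 had log2 differences of -0.39, -0.28 and -0.48 (edgeR adjusted p = 0.341, 0.332 and 0.271). Adcy4 is known from blood vessels and Adcy7 from blood cells, and 2 of 8 endothelial and 1 of 8 macrophage and leukocyte markers fell, as given above; their part was not tested. Adcy4 stood at 10.6, 15.6 and 15.2 CPM in knock-in hearts and 19.2, 14.3 and 16.8 CPM in wild-type hearts, which overlap. In bulk hearts, fewer cells of a type and less RNA per cell cannot be told apart. Of the 24 tested bins of Adcy4, 3 fell, all in its 3′ part, and so did the last bin of Adcy7 (log2 -1.22, edgeR adjusted p = 0.0349). The last bin of Adcy4 did not pass (log2 -0.88, edgeR adjusted p = 0.113). Of the last tested bins of all genes 18.6% fell.

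**Figure D3:**
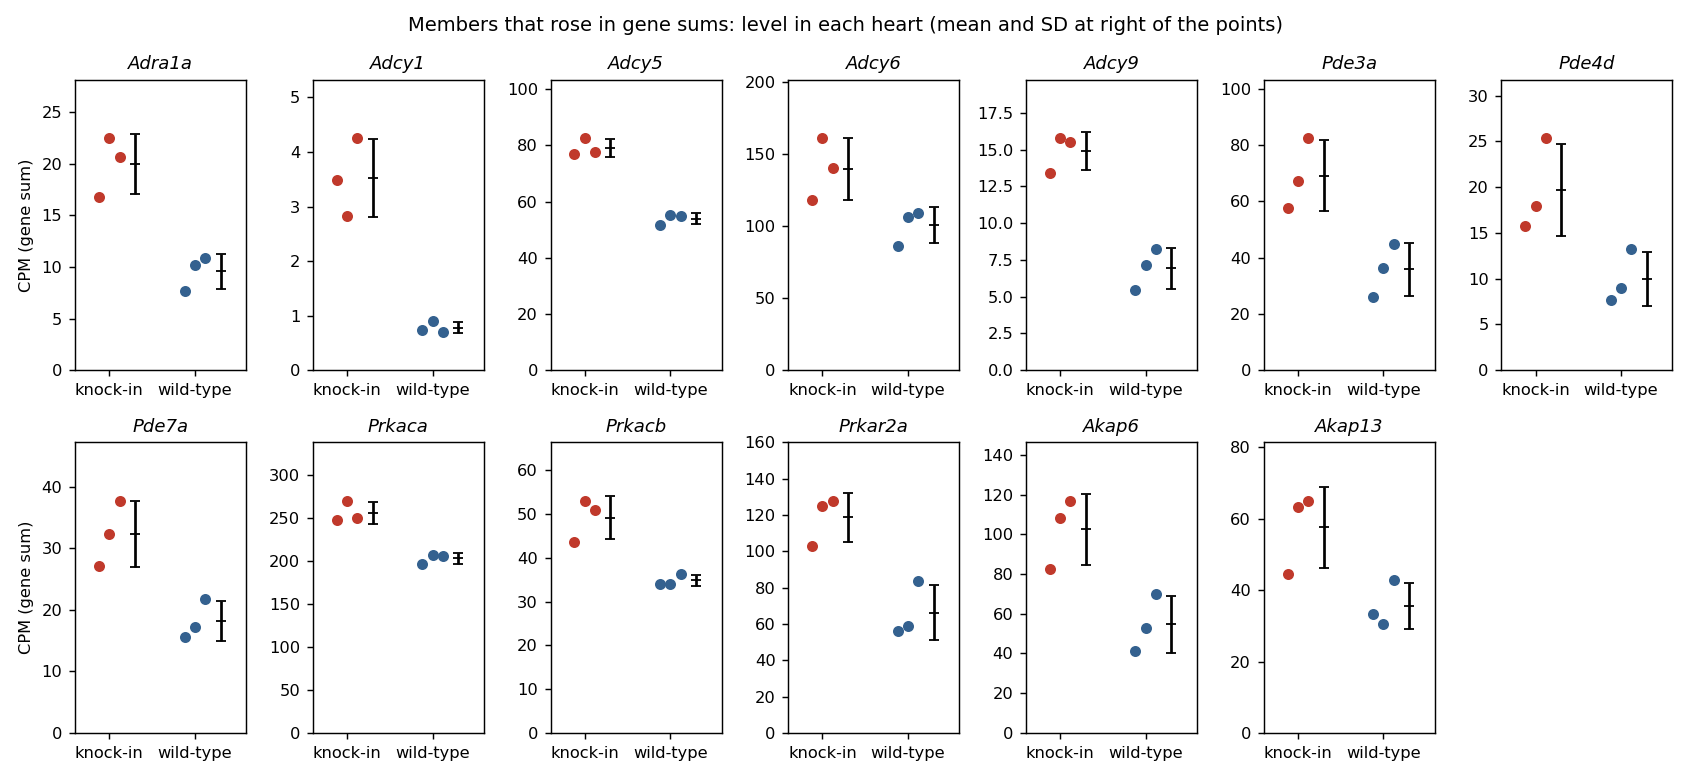
Gene sums in CPM of the 13 members that rose, 1 panel per gene with an axis from 0, 3 knock-in hearts left and 3 wild-type hearts right, with the mean and SD beside the points. In each panel the lowest knock-in heart lies above the highest wild-type heart, most narrowly in Akap13 at 44.5 and 42.8 CPM.

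Among the phosphodiesterases, Pde3a, Pde4d and Pde7a rose and the other 6 did not pass. Pde3a, the cyclic GMP-inhibited enzyme that milrinone blocks, had 57.5, 67.4 and 82.6 CPM in the knock-in hearts and 26.2, 36.5 and 44.8 CPM in the wild-type hearts. The ranges did not meet (1.93-fold, log2 0.95 ± 0.18, SE, edgeR adjusted p = 0.0104, and 0.00126 to 0.0545 with 1 heart left out, failing without knock-in heart 2 or wild-type heart 2). All 15 of its tested bins ahead of the last rose singly. The last, which takes 8797 of its 12737 exonic bases, held 806, 939 and 1302 counts in knock-in and 559, 706 and 808 in wild-type hearts and did not pass (log2 0.35 ± 0.15, edgeR adjusted p = 0.131). With bins reaching into the 3′ window Pde3a had a log2 difference of 0.66 (edgeR adjusted p = 0.0511).

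Pde4d, a cyclic AMP-specific enzyme that binds the beta receptor complex and the ryanodine receptor, had 15.8, 18 and 25.4 CPM in knock-in hearts and 7.64, 8.96 and 13.3 CPM in wild-type hearts. Knock-in heart 3 was the highest of all, and the lowest knock-in heart was still above wild-type heart 3 (1.98-fold, log2 0.99 ± 0.22, SE, edgeR adjusted p = 0.0195, and 0.00195 to 0.1 with 1 heart left out). The call held only without knock-in heart 1 or wild-type heart 3. Its 3′ end contained 106, 106 and 214 counts in knock-in hearts and 57, 81 and 107 in wild-type hearts. The size was alike (log2 0.95 ± 0.30), but it did not pass with edgeR (adjusted p = 0.107), while DESeq2 gave an adjusted p = 0.0458. Of its 56 bins 11 were tested singly, 0 of them in the 5′ part of the gene and 10 in the 3′ part. All 11 were higher, 4 past the threshold. The 5′ part held 47, 32 and 56 counts in knock-in hearts and 41, 33 and 29 in wild-type hearts.

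Pde7a, a high-affinity cyclic AMP enzyme, had 27.1, 32.3 and 37.8 CPM in knock-in hearts and 15.6, 17.2 and 21.8 CPM in wild-type hearts, again apart (1.78-fold, log2 0.83 ± 0.16, SE, edgeR adjusted p = 0.0109, and 0.00178 to 0.0669 with 1 heart left out, failing without knock-in heart 2 or wild-type heart 1 or 2). Its 3′ end held only 25, 31 and 47 counts in knock-in hearts and 22, 39 and 48 in wild-type hearts. These overlap, and the log2 difference was 0.07 ± 0.34 (edgeR adjusted p = 0.938).

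Pde2a, which cyclic GMP stimulates, had the highest level per length of the phosphodiesterases, 10.6 CPM per kb in knock-in and 12.6 CPM per kb in wild-type hearts. Its bins carry an identifier joined with Arap1 and a predicted gene, so it was read from a fit with joined identifiers split. There it had 60.2, 66.7 and 68.8 CPM in the knock-in hearts and 89.0, 70.0 and 72.9 CPM in the wild-type hearts. Every knock-in heart was lower, by a log2 difference of -0.25 ± 0.12 (SE, edgeR adjusted p = 0.216). Of its 29 tested bins 28 had negative differences and 3 passed. Both of the most 5′ tested bins did (log2 -1.81 and -1.45, edgeR adjusted p = 0.00407 and 0.00665). The first of them held 10, 5 and 8 counts in knock-in and 28, 25 and 18 in wild-type hearts. Pde1c, Pde3b, Pde4a, Pde4b and Pde8a had log2 differences of 0.23 to 0.45 (edgeR adjusted p 0.123 to 0.324). Of these, Pde4a fell in its last bin (log2 -0.47, edgeR adjusted p = 0.0458), as 18.6% of the last tested bins of all genes did. The same counts make up its 3′ end, where the log2 difference was -0.08 (edgeR adjusted p = 0.818).

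Protein kinase A genes had positive differences throughout, and 3 of 5 rose. Prkar1a, the type I regulatory subunit gene, had the most counts per exonic base in this layer. It stood at 474, 506 and 542 CPM in knock-in hearts and 340, 394 and 454 CPM in wild-type hearts. The groups did not overlap, but the log2 difference of 0.36 ± 0.12 did not pass (edgeR adjusted p = 0.0732). Prkaca, the gene of the main catalytic subunit, had 247, 270 and 250 CPM in knock-in hearts and 196, 207 and 205 CPM in wild-type hearts. The groups lay clearly apart though the change was small (1.26-fold, log2 0.34 ± 0.10, SE, edgeR adjusted p = 0.0481, and 0.0445 to 0.231 with 1 heart left out). Prkaca passed only without knock-in heart 1 or wild-type heart 3, and not with median-ratio or upper-quartile scaling, without a filter on low counts or from bins of 50 bases or more. None of its 11 tested bins passed. At its 3′ end Prkaca did not pass (log2 0.20 ± 0.10, SE, edgeR adjusted p = 0.3). With bins reaching into that window it did not pass either (log2 0.29, edgeR adjusted p = 0.147). With the last 2000 of its 2488 exonic bases it rose (log2 0.50, edgeR adjusted p = 0.0186).

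Prkacb, the second catalytic subunit gene, had 43.6, 53.1 and 50.9 CPM in knock-in hearts and 34.1, 34.1 and 36.4 CPM in wild-type hearts, without overlap (1.41-fold, log2 0.50 ± 0.12, SE, edgeR adjusted p = 0.0233, and 0.0095 to 0.125 with 1 heart left out, passing only without knock-in heart 1 or wild-type heart 3). Its 3′ end held 98, 66 and 118 counts in knock-in hearts and 135, 89 and 95 in wild-type hearts, which overlap (log2 0.00 ± 0.22, edgeR adjusted p = 0.997). The type II regulatory subunit gene Prkar2a, whose protein binds the AKAPs, had 103, 125 and 128 CPM in knock-in hearts and 56.1, 58.7 and 83.8 CPM in wild-type hearts. Wild-type heart 3 came closest to the knock-in group (1.79-fold, log2 0.84 ± 0.15, SE, edgeR adjusted p = 0.00807, and 0.0005 to 0.057 with 1 heart left out, failing without knock-in heart 2 or wild-type heart 1 or 2). Its last 1000 bases held 237, 238 and 335 counts in knock-in hearts and 260, 277 and 235 in wild-type hearts, which overlap (log2 0.24 ± 0.15, edgeR adjusted p = 0.425). Prkar2b was at 0.617 to 0.783 CPM in knock-in and 0.578 to 0.675 CPM in wild-type hearts, which overlap (log2 0.13 ± 0.37, SE, edgeR adjusted p = 0.856).

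Of the anchors, Akap6 and Akap13 rose and Akap1 did not pass. Akap6 encodes mAKAP, which holds protein kinase A and Pde4d at the nuclear envelope of muscle cells. It had 82.3, 108 and 117 CPM in knock-in hearts and 41.3, 52.9 and 69.7 CPM in wild-type hearts, apart by less than the spread within either group (1.88-fold, log2 0.91 ± 0.18, SE, edgeR adjusted p = 0.0112, and 0.00094 to 0.0658 with 1 heart left out, failing without knock-in heart 2 or wild-type heart 1 or 2). Akap13, the gene of the anchor AKAP-Lbc, had 44.5, 63.2 and 65.1 CPM in knock-in hearts and 33.4, 30.5 and 42.8 CPM in wild-type hearts. Knock-in heart 1 lay just above wild-type heart 3 (1.62-fold, log2 0.70 ± 0.17, SE, edgeR adjusted p = 0.023, and 0.00244 to 0.119 with 1 heart left out, passing only without knock-in heart 1 or wild-type heart 3). From the highest bin of each gene, Akap13 had a log2 difference of -0.03. With bins reaching into the 3′ window, the log2 differences were 0.07 for Akap6 and 0.01 for Akap13 (edgeR adjusted p = 0.829 and 0.977). Akap1, the anchor of the mitochondrial outer membrane, had the most counts per exonic base of the layer, with 107, 124 and 98.6 CPM in knock-in hearts and 90.1, 101 and 133 CPM in wild-type hearts. These overlap (log2 0.02 ± 0.15, SE, edgeR adjusted p = 0.935, and -0.05 with upper-quartile scaling).

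None of the desensitisation and Epac genes passed in gene sums with edgeR. Grk5, the receptor kinase gene, stood at 31.2, 37.4 and 33.1 CPM in knock-in hearts and 23.9, 25.2 and 35.4 CPM in wild-type hearts, wild-type heart 3 lying among the knock-in hearts (log2 0.27 ± 0.16, SE, edgeR adjusted p = 0.294). The beta-arrestin genes had log2 differences of 0.30 ± 0.15 for Arrb1 and -0.54 ± 0.19 for Arrb2 (SE, edgeR adjusted p = 0.207 and 0.0847). Arrb2 had 6.20, 8.34 and 6.91 CPM in knock-in hearts and 12.6, 9.53 and 8.97 CPM in wild-type hearts, without overlap, and its identifier is joined with the microRNA gene Mir7115. Without wild-type heart 3 or without a filter on low counts Arrb2 fell (log2 -0.63 and -0.55, edgeR adjusted p = 0.0423 and 0.0487). The log2 difference of its 3′ end was 0.05 (edgeR adjusted p = 0.911).

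Rapgef3, the gene of Epac1, stood at 21.7, 24.9 and 27.5 CPM in knock-in hearts and 40.8, 28.5 and 35.7 CPM in wild-type hearts. Every knock-in heart was below every wild-type heart, and the log2 difference of -0.50 ± 0.15 just missed the threshold (SE, edgeR adjusted p = 0.0533, and 0.0592 to 0.195 with 1 heart left out). With DESeq2 it fell (adjusted p = 0.0182), as it did in 5 other settings of the edgeR fit. All 30 of its bins that were tested singly were lower in knock-in hearts. Of these, 4 passed the threshold, 3 in the middle part of the gene and 1 in the 3′ part. Epac1 is known from blood vessel as well as muscle cells. Of the 8 endothelial markers tested, Emcn and Cldn5 fell and 6 did not pass, among them Pecam1 (log2 0.05) and Cdh5 (log2 -0.18), and their sums overlap between the groups. Their part in the values of Rapgef3 was not tested. Rapgef4, the gene of Epac2, had the higher level per length, 7.71 CPM per kb in knock-in and 6.17 CPM per kb in wild-type hearts. It had 47.8, 50.1 and 56.5 CPM in knock-in hearts and 36.2, 40.3 and 47.1 CPM in wild-type hearts, apart by a narrow gap (log2 0.32 ± 0.13, SE, edgeR adjusted p = 0.127).

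**Figure D4:**
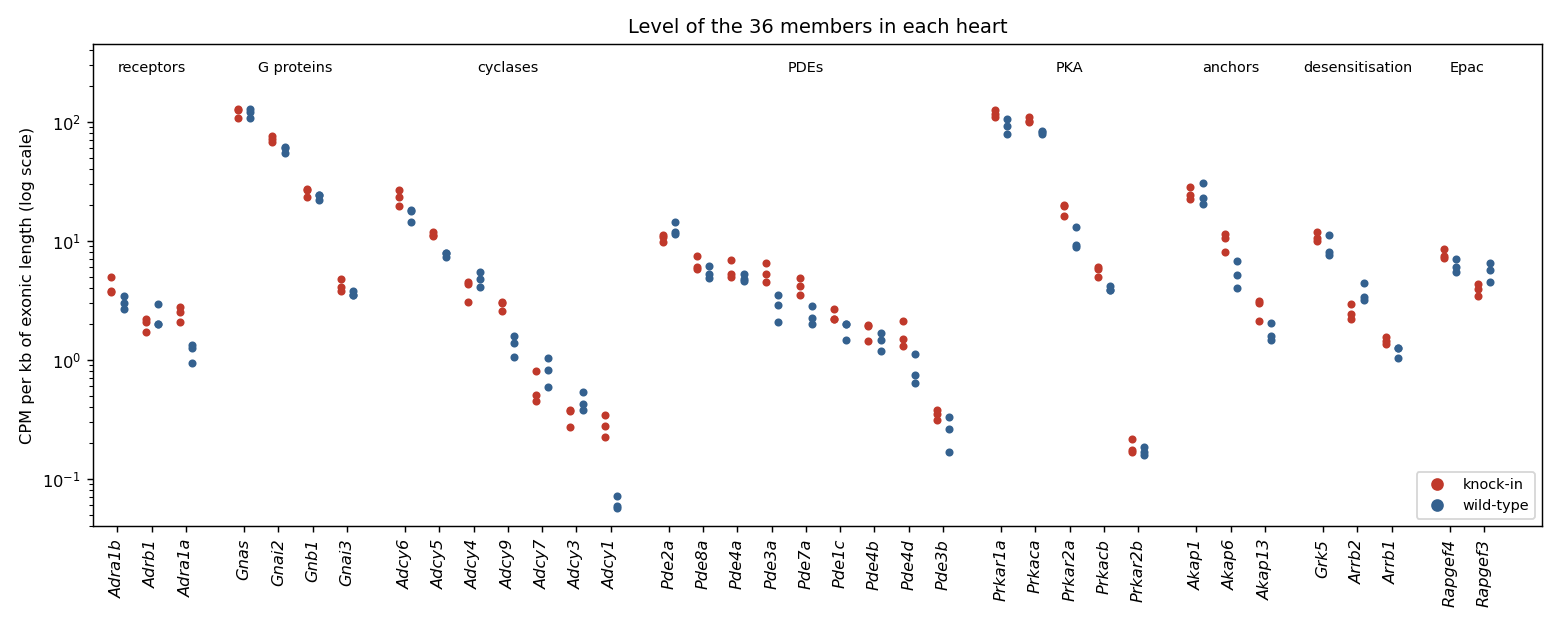
Gene sums per kb of exonic length (CPM per kb, log axis) in each heart for the 36 members by layer, knock-in in red left of wild-type in blue, ordered within a layer by the wild-type mean. Gnas, Prkar1a and Prkaca lie highest, near 100 CPM per kb, and Adcy1, Prkar2b and Pde3b lowest in wild-type hearts.

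Read bin by bin, the share of bins that rose declined from the 5′ to the 3′ side in the members, as it did over all genes. Of 492 member bins of at least 50 bases that were tested, 104 rose and 14 fell, where 8.81% of 112884 bins of all genes rose and 6.63% fell. With the exonic length in 3 equal parts, 51 of 150 member bins rose in the 5′ part, 41 of 183 in the middle and 12 of 159 in the 3′ part. Over all genes the shares in these parts were 14.6%, 7.79% and 1.49%. The parts of Pde2a are those of its joined identifier and not of the gene itself. They put 0, 2 and 27 of its 29 tested bins in the 5′, middle and 3′ part. Of the last tested bin of each member, 2 of 35 rose (Adcy1 and Adcy9) and 4 fell (Adcy7, Pde4a, Akap1 and Rapgef4), where 0.712% of 11651 last bins rose and 18.6% fell. The median log2 difference of the last bins was -0.25 over the members and -0.37 over all genes, and that of the first tested bins was 0.36 and -0.07. Bins of a gene share reads and are not replicates.

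Along the genes that rose, 2 shapes were seen. In Adra1a, Adcy1, Adcy9 and Pde4d the last bin also lay above 0, at 1.06, 1.39, 0.76 and 0.59 on the log2 scale. The last bin passed the threshold in Adcy1 and Adcy9 only. On this scale the median last bin of all genes lay at -0.37. In Adcy5, Adcy6, Pde7a, Prkaca, Prkacb, Prkar2a, Akap6 and Akap13 the last bin lay between -0.38 and -0.07, while the highest bin before it reached 0.38 to 2.22. Pde3a lay between, at 0.35 in the last bin. Akap6 had the steepest slope. Its first tested bin, 252 coding bases, held 57, 100 and 114 counts in knock-in hearts and 10, 16 and 24 in wild-type hearts (log2 2.22 ± 0.29, SE, edgeR adjusted p = 0.000179). Its last, 3205 bases, held 606, 691 and 923 counts in knock-in hearts and 700, 771 and 806 in wild-type hearts (log2 -0.25 ± 0.14, edgeR adjusted p = 0.235). In Prkar2a the log2 difference was 1.23 in a 75-base coding bin, 0.74 in the first bin of the untranslated 3′ region and -0.14 in the last. In Adcy6 it was 0.87 in the first tested bin and -0.07 in the last, which held 1067, 1319 and 1392 counts in knock-in hearts and 1113, 1165 and 1157 in wild-type hearts. The part of coverage along the gene in the gene sums of these 8 genes was not tested beyond these values.

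**Figure D5:**
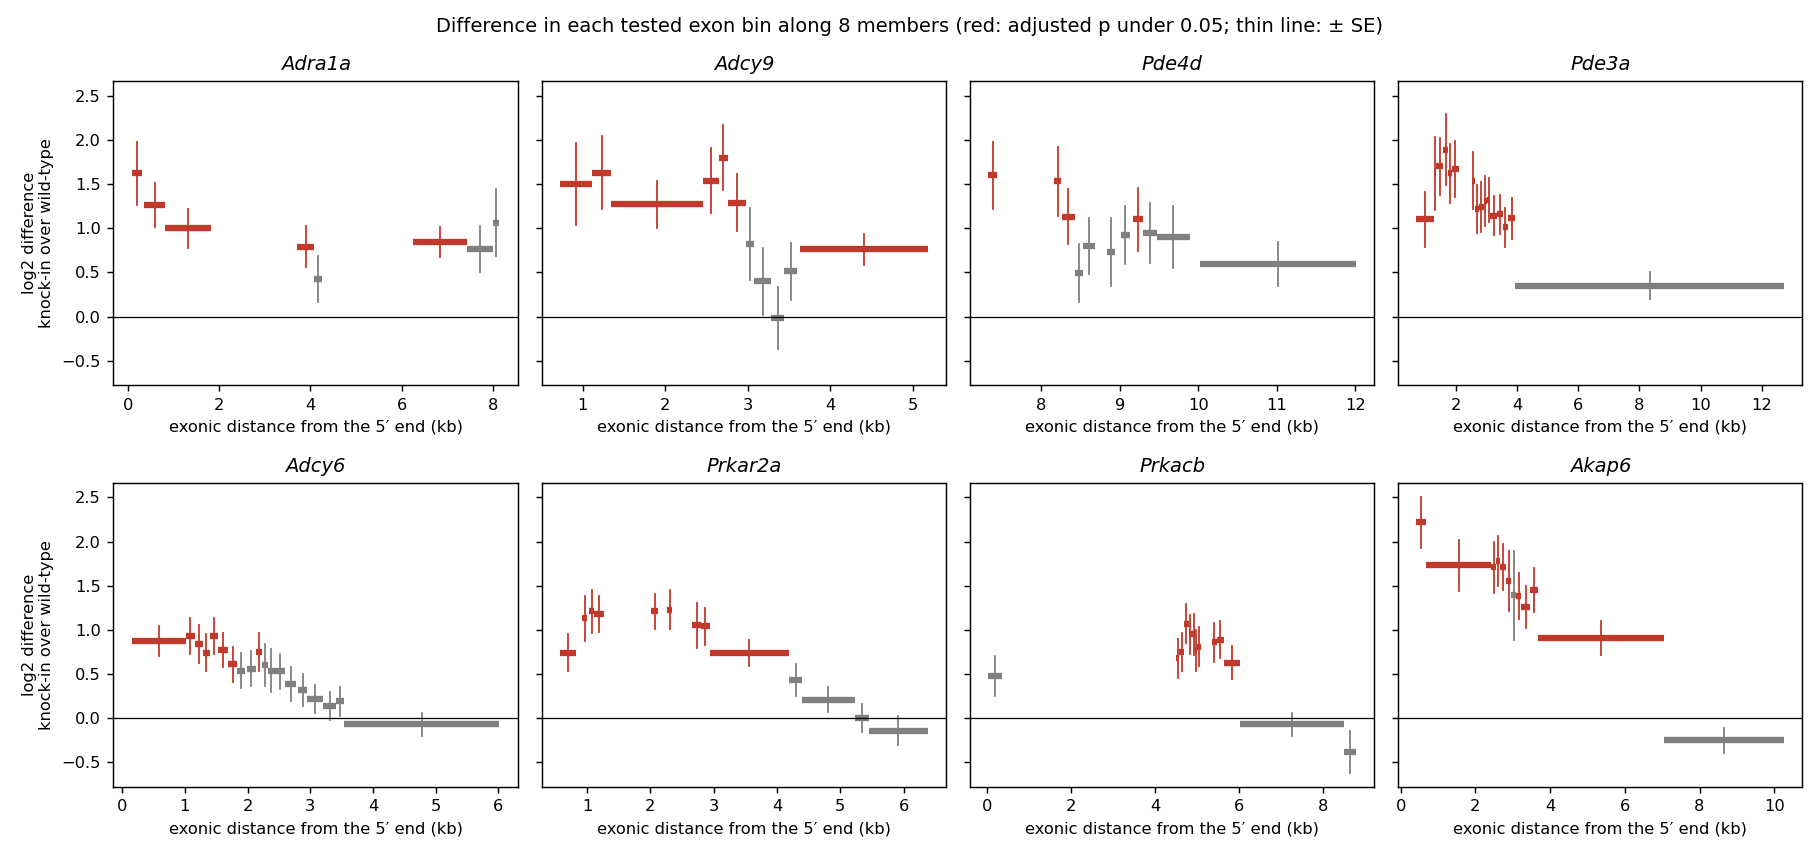
Log2 difference, knock-in over wild-type, of each tested exon bin against exonic distance from the 5′ end for 8 members; the bar spans the bin, the thin line is the SE, and red marks an adjusted p under 0.05. In the upper row the last bins lie between 0.35 and 1.06, and in the lower row between -0.38 and -0.07.

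Beyond the members, 77 other genes of the same pathway were listed, of which 63 were tested in gene sums; 6 rose and 1 fell, with a median log2 difference of 0.16 (6.74% of all genes rose and 4.09% fell). The 6 were Cap2, a cyclase-associated actin regulator, Pde4dip, the myomegalin gene, Pkia, an inhibitor of protein kinase A, the anchor gene Cmya5, the Rap exchange factor gene Rapgef2 and the coactivator gene Ep300. Pde4dip and Ep300 carry identifiers joined with another gene. Cap2 had 204, 220 and 191 CPM in knock-in hearts and 125, 140 and 160 CPM in wild-type hearts (1.45-fold, edgeR adjusted p = 0.0171), and was the one among 30 tested that also rose at the 3′ end (log2 0.51, edgeR adjusted p = 0.0294). Pkia had 155, 149 and 168 CPM in knock-in hearts and 77.6, 113 and 130 CPM in wild-type hearts (1.47-fold, edgeR adjusted p = 0.0432). Pde4dip and Cmya5 rose 1.35-fold and 1.42-fold in gene sums, with log2 differences of -0.17 and -0.16 at the 3′ end (edgeR adjusted p = 0.436 and 0.448). Adra1d, the alpha-1D receptor gene known from smooth muscle, fell, with 0.685, 0.730 and 0.676 CPM in knock-in hearts and 1.67, 1.47 and 1.35 CPM in wild-type hearts (log2 -1.10 ± 0.32, SE, edgeR adjusted p = 0.0449). Of the 8 smooth muscle and pericyte markers, Acta2, Tagln and Cnn1 fell (log2 -0.90, -0.82 and -1.78). The other 5 did not pass, with log2 differences of -0.65 for Myh11, -0.44 for Kcnj8, -0.05 for Rgs5, 0.08 for Notch3 and 0.12 for Pdgfrb. Their part in the value of Adra1d was not tested.

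Of 15 tested genes whose proteins protein kinase A phosphorylates in muscle cells or acts through, 6 rose and 0 fell in gene sums, where 6.74% of all genes rose and 4.09% fell, with a median log2 difference of 0.42 beside 0.00 over all genes. Cacna1c, the pore of the L-type calcium channel, had 231, 285 and 275 CPM in knock-in hearts and 118, 142 and 174 CPM in wild-type hearts, the groups well apart (1.82-fold, edgeR adjusted p = 0.00611). Its partner Cacnb2 rose 1.63-fold, the potassium channel gene Kcnq1 1.33-fold, and the phosphorylase kinase genes Phkb, Phkg1 and Phka1 1.62-fold, 1.64-fold and 1.42-fold (edgeR adjusted p 0.0101 to 0.0445). In the last 1000 bases 0 of 9 tested passed with edgeR, where 1.57% of all genes rose, with log2 differences of 0.09 for Cacnb2, 0.35 for Kcnq1 and 0.66 for Phkg1. These lists were chosen with earlier results of these data known, so their counts are descriptions.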

How the data were processed

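RNA sequencing counts per exon bin were deposited for 6 hearts. Per the labels' protocols, RNA was column-purified and libraries made with a NEBNext Ultra II kit. Per the submitters' processing notes, GRCm38.p6, STAR, featureCounts, Subread 1.5.2 and DESeq2 were used, with roles and settings that the sources here leave out. The deposited values are whole-number counts without normalization, in 425461 bins, and a read spanning several bins appears to be counted in each, so sums are not read numbers. Of the identifiers, 1194 join overlapping genes. Sample columns left unused numbered 0.

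Bins were summed per identifier, named through GENCODE M21, filtered with filterByExpr and TMM-scaled. Tests used the robust quasi-likelihood functions of edgeR 4.0.16 (glmQLFit and glmQLFTest, R 4.3.3); p-values were Benjamini-Hochberg adjusted over all features, with a threshold of 0.05. SE is the log2 difference divided by the root of F. The same fit was run on bins in the last 1000 exonic bases and on single bins of at least 50 bases. The 3′ to 5′ ratio added 10 counts to the 5′ and 3′ part. Alternatives were DESeq2 1.42.0, limma-voom (limma 3.58.1), other scalings, windows and filters, length and GC offsets, and each heart left out. Steps were tested on simulated data. PCR reads are not independent molecules, and p-values measure the spread between these 3 hearts a group. The members and lists were chosen with earlier results of these data known. All 36 members are named, with values in every heart for those past the threshold in either fit and for the member of each layer with most counts per exonic base; of the other lists, up to 10 genes past the threshold are named.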

Additional observations from a re-analysis of the deposited data

How the results depend on the processing

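No paired analysis was possible because the labels give no replicate numbers and hearts were numbered in accession order only. In gene sums, the number of changed members ran from 12 to 16 with other scalings, DESeq2, limma-voom, no filter, bins of 50 bases or more, split identifiers, or length and GC offsets. It was 8 with the highest bin of each gene and 0 with the ratio as a covariate, where 607 and 4 genes were called, against 1415 in all. The split of 881 higher to 534 lower genes became 594 to 734 with upper-quartile scaling. With 1 heart left out, 164 to 2461 genes, 3 to 17 members and, among single bins, 59 to 167 member bins changed, against 118. At the 3′ end, 277 genes and 2 members were called. With no filter it was 623 genes and 4 members, with DESeq2 423 and 4, with the last 500 bases 117 and 0, with the last 2000 bases 442 and 4, with bins reaching into the window 422 genes, and 55 to 428 genes and 0 to 3 members with 1 heart left out. The difference in the members' ratio, -0.76, was -0.41 when the outer of 5 equal parts were compared and -0.86 to -0.62 with 1 heart left out.

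Among log2 differences of members in gene sums, signs turned with the ratio as a covariate for Adcy6 (-0.25), Adcy7 (0.23), Pde1c (-0.24), Pde3a (-0.22), Pde3b (-0.67), Pde4a (-0.29), Pde4b (-0.65), Pde4d (-0.19), Pde8a (-0.11), Prkar1a (-0.27), Prkar2a (-0.09), Prkar2b (-0.02), Akap1 (-0.87), Akap6 (-0.33), Akap13 (-0.05), Grk5 (-0.65) and Rapgef4 (-0.24). None of these passed with the covariate, and the ratio and the genotype cannot be told apart in that fit. The highest bin turned Gnb1 (-0.07), Pde4a (-0.18), Pde4b (-0.07), Akap13 (-0.03) and Rapgef4 (-0.35). Length and GC offsets turned Adrb1 (0.03) and Gnas (-0.04), upper-quartile scaling Gnas (-0.05) and Akap1 (-0.05), and bins of 50 bases or more Gnas (-0.01). At the 3′ end, bins reaching into the window turned Adra1b (-0.01), Gnb1 (-0.03) and Pde4b (-0.02), the last 2000 bases Pde7a (-0.01), Akap1 (0.02), Arrb2 (-0.34) and Rapgef4 (0.19), and the last 500 bases Arrb2 (-0.26). With 1 heart left out, gene sums ran from -0.04 to 0.08 for Gnas and -0.12 to 0.20 for Akap1. At the 3′ end they ran from -0.14 to 0.33 for Adra1b, -0.07 to 0.09 for Gnb1, -0.22 to 0.01 for Pde4a, -0.09 to 0.13 for Pde4b, -0.22 to 0.38 for Pde7a, -0.15 to 0.06 for Akap1 and -0.07 to 0.14 for Arrb2. Of the members whose sign turned in some setting, those called in gene sums are Adcy6, Pde3a, Pde4d, Pde7a, Prkar2a, Akap6 and Akap13. Among them Pde7a turned only at the 3′ end. The causes were not tested. Splitting joined identifiers and the whole-bin window were chosen after seeing the data. Few counts lie behind Prkar2b, Adcy3 and Pde3b, and behind the called Adcy1 in wild-type hearts (0.738, 0.896 and 0.707 CPM).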
